A study of Arabidopsis thaliana with 14 samples.

Results

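The genes described here are nuclear genes for the proteins of the cytosolic ribosome, measured in root tips of Arabidopsis thaliana on Affymetrix ATH1 arrays. Members were taken from a catalogue of cytosolic ribosomal protein loci of this species, with organellar ones left out. That catalogue was recalled by locus and was not checked against a published list. A locus was kept where exactly 1 gene is paired with its probe set. This gave 135 members of 237 catalogued loci, 87 of the large subunit and 48 of the small subunit, each on 1 of 22746 probe sets that are not array controls. They cover 60 of 80 protein families, and 45 further loci lie only on probe sets shared by several genes. Neither the deposited table nor the gene table of the reference describes these 135 loci. Their membership, families and subunits therefore rest on the recalled catalogue alone. All 237 loci were present in the reference gene table, which names 39 as ribosomal proteins. For 36 of those the family number was the same as in the catalogue, and 1 of the other 3 carries the letter of the other subunit there; none of the 39 is a member. Of the members, AT2G44860 (L24) may encode a ribosome assembly factor and not a structural protein; it is counted as a tested large subunit gene and was not called in any of the 10 comparisons.

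The study followed transcripts during crosstalk of auxin and cytokinin in the apex of the primary root. All 14 arrays come from 1 line with the Wassilewskija background, AtIPT8/pga22, which is labelled as carrying a T-DNA knock-out of IPT8 and known as one in which an estradiol-inducible promoter drives IPT8, an enzyme that makes cytokinin. Seedlings grown for 7 days on plates received 5 µM 17-beta-estradiol (3 arrays at 12 h, 2 at 24 h), 5 µM trans-zeatin, a cytokinin (2 arrays at each time), or liquid medium alone as the control (3 arrays at 12 h, 2 at 24 h). RNA came from the last 5 mm of primary roots. IPT8 has no named probe set, so its induction was not read, and effects of estradiol itself and of IPT8 cannot be told apart because no array lacks the transgene. As a check of the treatments, the cytokinin response genes ARR15 and RR16 had a summed signal between 90.1 and 149 on the treated arrays and between 7.82 and 20.0 on the control arrays.

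Ribosomes translate mRNA in all living cells. The small subunit decodes the mRNA and the large subunit joins amino acids, and each protein is usually encoded in Arabidopsis by a small family of near-identical paralogs. Dividing cells of the meristem make many ribosomes, and transcripts of ribosomal proteins are among the most abundant there. In the large subunit, a lateral stalk of P proteins recruits the factors that drive elongation.

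Signals of the members were high. The median of their mean signals over the 14 arrays was 1006 on the linear scale of the deposited values, at the 97.7th percentile of all probe sets, and 103 of the 135 lay above the 90th percentile. The 3 with the highest mean signal were AT3G60245 (family L37a), AT5G20290 (S8) and AT5G15200 (S9). The 3 with the lowest were AT3G48130 (L13), AT3G10950 (L37a) and AT4G16030 (L19), whose signals did not exceed 11.4 on any array. A probe set was tested where at least 2 arrays exceeded a signal of 23, which 122 members passed, 78 of the large and 44 of the small subunit. The median replicate standard deviation (SD) of the tested members was 0.191 on the log2 scale, against 0.256 over all 15605 probe sets tested. These sets also differ in signal, with a median mean signal of 1181 for the tested members and 78.6 over all probe sets tested. The shares over all probe sets given below were not matched for signal.

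Taken by their median, transcripts of ribosomal proteins of both subunits were lower in treated than in control root tips, least so after 24 h of trans-zeatin. For each array, the members' median deviation from each gene's mean over the 14 arrays was taken on the log2 scale. At 12 h it was -0.11, -0.12 and -0.33 with estradiol and -0.12 and -0.51 with trans-zeatin, against 0.26, 0.23 and 0.29 in control. After 24 h it was -0.05 and -0.11 with estradiol and 0.16 and -0.01 with trans-zeatin, against 0.21 and 0.29 in control. Every treated array thus lay below every control array, the nearest being trans-zeatin 24 h replicate 1 and the furthest trans-zeatin 12 h replicate 2. The same was true of the members' share of the summed signal, which was at most 5.78% on treated and at least 6.01% on control arrays. Large and small subunit medians lay close together on each array, while the median of all probe sets tested stayed between -0.06 and 0.07. In bulk tissue, fewer cells of a type and less RNA per cell cannot be told apart.

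**Figure D1:**
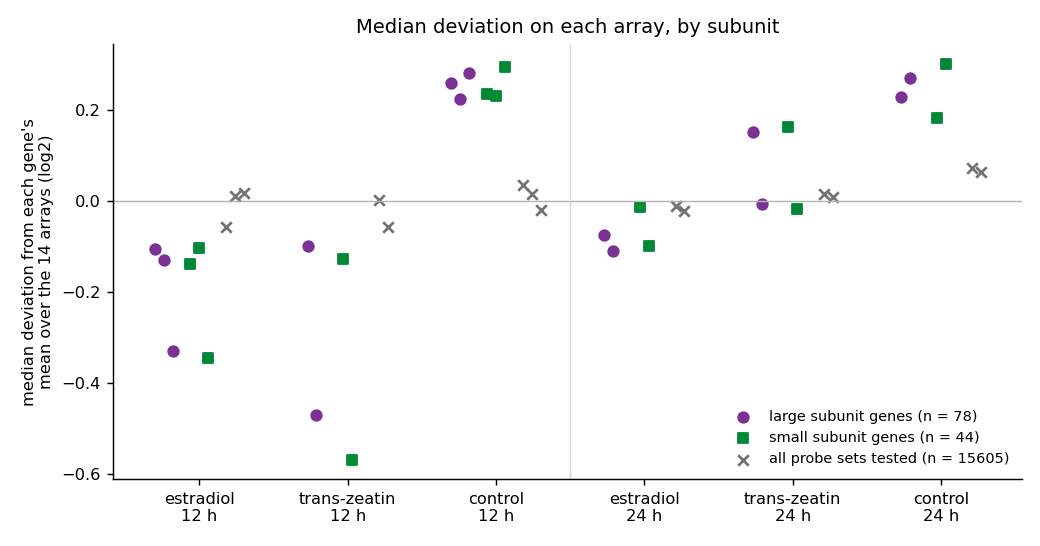
Median log2 deviation of the tested genes of the large subunit (circles), of the small subunit (squares) and of all tested probe sets (crosses) on each array, by group. Both subunits lie above 0 on all 5 control arrays and lowest on trans-zeatin 12 h replicate 2, where the small subunit's median was -0.57.

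Some measures of RNA quality and some cell markers moved with the treatments too, while others overlapped. The ratio of the 3' to the 5' signal of the actin control probe sets was between 2.37 and 3.31 on treated arrays at 12 h, against 3.23 to 4.93 in control, and between 3.71 and 4.85 on treated arrays at 24 h, against 6.24 and 6.44 in control. GAPDH ratios (0.94 to 1.48 on treated arrays, 1.11 to 1.59 in control) and ubiquitin ratios (0.81 to 1.43 and 1.12 to 1.40) overlapped. The mean ratio over actin, GAPDH and ubiquitin controls was 1.25 to 1.64 on treated arrays at 12 h, against 1.59 to 2.02 in control. At 24 h it was 1.77 to 2.03, against 2.29 to 2.32 in control. This mean was lowest, at 1.25, on trans-zeatin 12 h replicate 2. That array also had the highest signal of the 25S rRNA control probe set (4413, against 88.0 to 3175 on the other arrays). Of 17 dividing-cell markers listed, 3 were measured (the Aurora kinases AUR1 and AUR2, and PRL, the replication helicase subunit MCM7). Their summed signal at 12 h was 168 to 213 with estradiol and 148 to 199 with trans-zeatin, against 259 to 283 in control. At 24 h it was 173 to 204 with estradiol and 218 to 258 with trans-zeatin, against 336 to 366 in control. Of 9 root hair and epidermis markers listed, the expansins EXPA7 and EXPA18 were measured. Their summed signal at 12 h was 57.1 to 106 with estradiol and 59.5 to 83.4 with trans-zeatin, against 73.1 to 157 in control, which overlapped. At 24 h it was 64.7 to 85.3 with estradiol and 82.1 to 91.2 with trans-zeatin, against 48.2 to 61.6 in control, so that the treated arrays were higher there, although neither gene was called in any comparison with control or in the average (limma). A listed gene was counted as measured where it was the only gene named on a probe set. No listed marker of endodermis, xylem, phloem or root cap was measured in that sense. Of 22810 probe sets, 8794 have no gene named, so the array may hold probe sets for listed genes that were not read. Spearman's rho was 0.929 to 0.968 between replicates, and the arrays least like the rest were estradiol 12 h replicate 1 and control 12 h replicate 3.

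**Figure D2:**
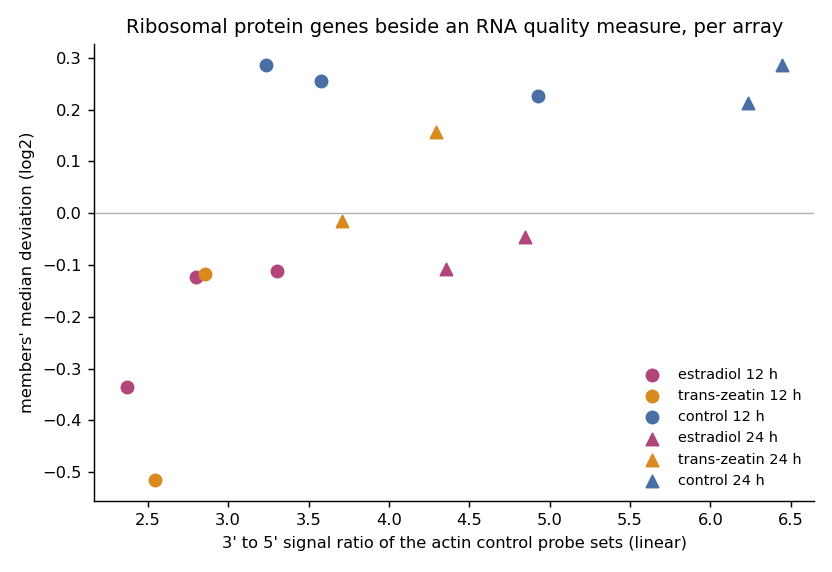
Members' median deviation on each array (vertical axis, log2) against the 3' to 5' signal ratio of the actin control probe sets (horizontal axis, linear). The 2 arrays with the lowest ratios, 2.37 (estradiol 12 h replicate 3) and 2.55 (trans-zeatin 12 h replicate 2), also have the lowest medians, and the control arrays lie above the treated arrays at ratios where they overlap.

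In the average of the 4 comparisons with control, 77 of 122 tested members were lower in treated root tips and none was higher (limma, adjusted p under 0.05 over all probe sets tested). Over all probe sets tested, 9.48% were called lower and 7.16% higher. Both subunits took part, with 49 of 78 large and 28 of 44 small subunit genes called lower. The median log2 change over the tested members was -0.37, against -0.05 over all probe sets tested. For 49 of the 122, every treated array lay below every control array of the same time, a pattern seen on 5.08% of all probe sets tested. Some genes named below were chosen for this pattern, so its mention for them is no further result. A negative log2 change in each of the 4 comparisons was found for 97 of 122 members (79.5%) and 25.1% of all probe sets tested; estradiol and trans-zeatin share the control arrays of each time. The count was 31 without control 24 h replicate 2 and 47 without control 24 h replicate 1. It was 0, with a median of -0.24, once the 3' to 5' ratio was a covariate, while calls over all probe sets fell to 420 in that fit, against 2596 without the covariate; the ratio and the treatment moved together and their parts cannot be told apart.

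**Figure D3:**
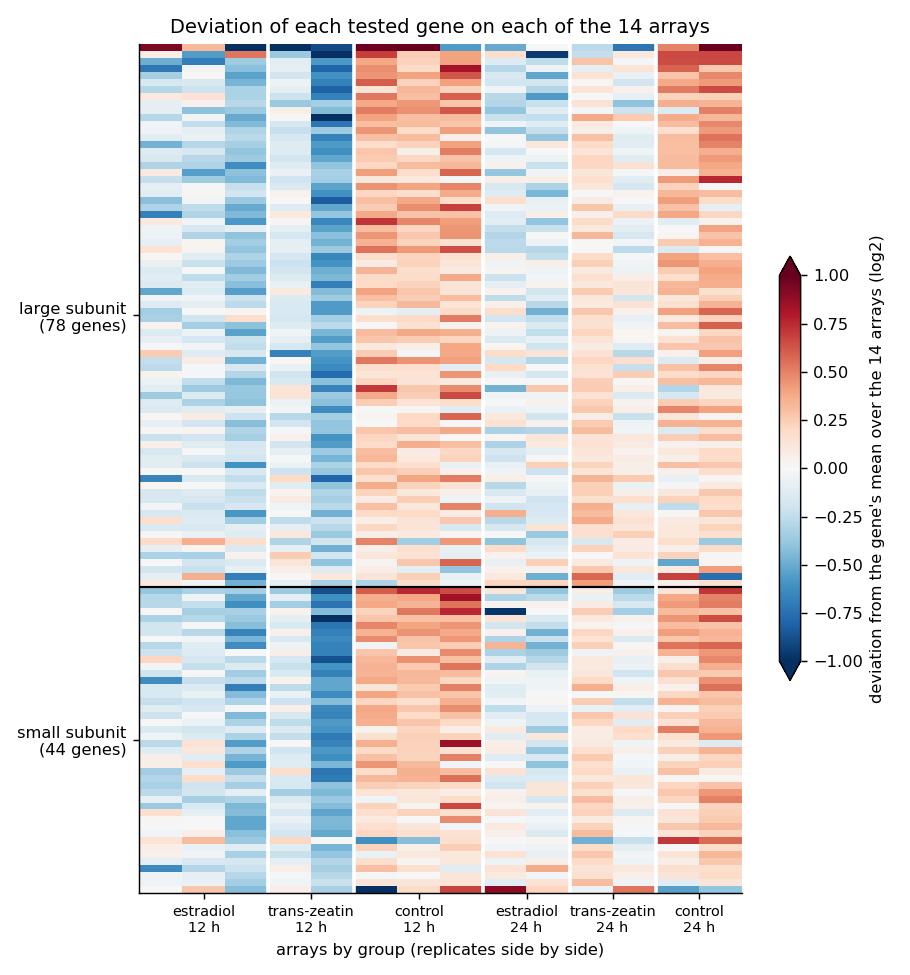
Deviation of each tested member (rows, ordered by average change within each subunit) from its mean over the 14 arrays (columns, by group), in log2 units from -1 (blue) to 1 (red). The control columns are mostly red in both subunits, and the darkest blue column is trans-zeatin 12 h replicate 2.

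The stalk of the large subunit was counted here as its P protein families alone. All 12 of their tested members were called lower in the average, with a median of -0.49. The stalk was not a set planned beforehand, and most tested members of the whole ribosome were called lower in that average. The stalk base protein P0 has 2 tested genes. AT3G11250 had signals of 131, 212 and 162 with estradiol and 204 and 122 with trans-zeatin, against 304, 250.1 and 392 in control at 12 h. The 24 h signals were 177 and 209.7 with estradiol and 204 and 240.5 with trans-zeatin, against 330.4 and 264 in control. No treated array reached a control array, and the average log2 change was -0.71 ± 0.16 (SE; adjusted p = 0.0074), which missed the threshold without control 24 h replicate 1 (adjusted p = 0.057). The other P0 gene, AT3G09200, fell by 0.42 ± 0.09 (adjusted p = 0.0057).

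The P1 and P2 proteins form the flexible dimers of the stalk, and P3 is a plant-specific relative. Of the P2 genes, AT3G44590 had 665, 669 and 538 with estradiol and 719 and 464 with trans-zeatin, against 1137, 872 and 992 in control at 12 h. At 24 h its signals were 651 and 654 with estradiol and 754 and 652 with trans-zeatin, against 970.3 and 999 in control. The groups did not overlap, and its average change was -0.63 ± 0.12 (adjusted p = 0.0022). The P1 gene AT4G00810 (-0.57 ± 0.10, adjusted p = 0.0017) and the P3 genes AT4G25890 (-0.53 ± 0.15, adjusted p = 0.029) and AT5G57290 (-0.35 ± 0.10, adjusted p = 0.021) also fell.

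AT3G28500 and AT5G40040, both P2 genes, had the largest average changes of any member but uneven arrays. AT3G28500 had 251, 162 and 53.8 with estradiol and 56.0 and 66.1 with trans-zeatin, against 259, 275 and 84.4 in control at 12 h, where only the estradiol arrays overlapped with control. At 24 h it had 88.5 and 129 with estradiol and 106 and 75.2 with trans-zeatin, against 183 and 354 in control, with no overlap. Its average change was -1.15 ± 0.34 (adjusted p = 0.033), missed the threshold without any 1 of 7 arrays, and was 0.10 with the 3' to 5' covariate. AT5G40040, a dim probe set with signals of at most 29.4, changed by -0.89 ± 0.27 (adjusted p = 0.037) and missed the threshold without any 1 of 9 arrays. Those arrays are named with the other effects of the processing.

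Among other large subunit genes, AT1G07070 (L35a) and AT2G47610 (L7a) were called in 3 of the 4 comparisons and in the average. No member was called in all 4. AT1G07070 had signals of 114, 98.2 and 125 with estradiol and 149 and 107 with trans-zeatin, against 214, 192 and 216 in control at 12 h. After 24 h the signals were 147 and 135 with estradiol and 199 and 160.0 with trans-zeatin, against 259 and 259.6 in control. Treated and control arrays were apart at both times, and the average change was -0.73 ± 0.11 (adjusted p = 0.00056), called without each array in turn. Its paralog AT1G74270 fell by 0.40 ± 0.10 (adjusted p = 0.012).

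AT5G22440 encodes L10a, the protein of the L1 stalk, which in yeast guides the leaving tRNA. Its signals were 664, 849 and 577 with estradiol and 739 and 549 with trans-zeatin, against 1146, 1112 and 1306 in control at 12 h. At 24 h they were 752 and 585 with estradiol and 931 and 801 with trans-zeatin, against 1024 and 1177 in control. The treated arrays lay below the control arrays at both times (-0.68 ± 0.12, adjusted p = 0.0014). All 3 tested L10a genes and all 3 tested L27 genes were called lower in the average, and AT3G22230 (L27) fell by 0.61 ± 0.11 (adjusted p = 0.0022).

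Of the small subunit, AT1G23410 encodes S27a, which is made as a fusion with ubiquitin. It had 119, 124 and 124 with estradiol and 120.1 and 82.2 with trans-zeatin, against 241, 269 and 250.1 in control at 12 h. At 24 h it had 171 and 118 with estradiol and 164 and 121 with trans-zeatin, against 172 and 261 in control, where replicate 1 all but met the highest treated array. The average change was -0.86 ± 0.14 (adjusted p = 9e-04).

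AT4G34555 (S25), a protein of the head of the small subunit, had 186, 190.1 and 145 with estradiol and 177 and 133 with trans-zeatin, against 296, 288 and 332 in control at 12 h. Signals at 24 h were 232 and 233 with estradiol and 239 and 202 with trans-zeatin, against 306 and 324 in control. The groups were apart at both times (-0.67 ± 0.11, adjusted p = 0.00082). Of its tested paralogs, AT2G21580 and AT4G39200 were called lower, while AT2G16360, a dim probe set, changed by -0.22 ± 0.17 and was not called (adjusted p = 0.4). That average joins opposite signs. AT2G16360 changed by 0.32 and 0.39 after 12 h of estradiol and trans-zeatin, and by -0.62 and -0.99 after 24 h. Between the controls it changed by 0.93 from 12 h to 24 h, and none of these changes was called.

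AT4G30800 (S11) had 90.8, 109 and 76.1 with estradiol and 105 and 71.1 with trans-zeatin, against 146, 148 and 205 in control at 12 h. The 24 h values were 89.3 and 91.6 with estradiol and 107 and 91.6 with trans-zeatin, against 148 and 161 in control. No arrays overlapped (-0.76 ± 0.13, adjusted p = 0.0014). All 3 tested S4 genes were called lower, AT5G58420 by 0.63 ± 0.13 (adjusted p = 0.0047), and the dim S8 gene AT5G59240 changed by -0.64 ± 0.20 (adjusted p = 0.039) but missed the threshold without any 1 of 9 arrays.

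**Figure D4:**
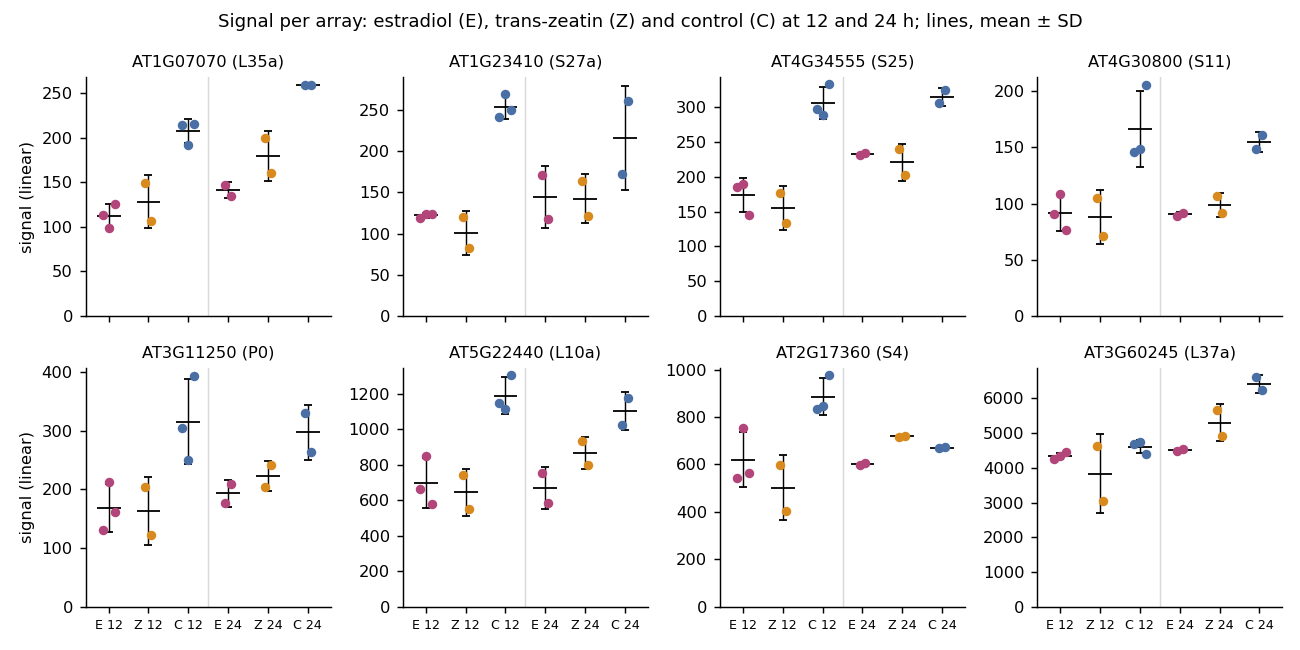
Signal (linear, from 0) of 8 genes on each array, with mean ± SD per group (2 or 3 arrays), for estradiol (E), trans-zeatin (Z) and control (C) at 12 and 24 h. AT1G07070, AT4G34555, AT4G30800, AT3G11250 and AT5G22440 are lower on all treated arrays than on the control arrays of the same time, whereas AT2G17360 lies below control at 12 h and on both sides of it at 24 h, and AT3G60245 has the highest mean signal of all members.

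AT2G17360 is another S4 gene and had 541, 753 and 565 with estradiol and 598 and 405 with trans-zeatin, against 835, 845 and 976 in control at 12 h. At 24 h it had 599 and 605 with estradiol and 714 and 721 with trans-zeatin, against 668 and 674 in control, so the trans-zeatin arrays lay above the control arrays there. Its average change of -0.35 ± 0.11 only just passed (adjusted p = 0.045) and did not pass without any 1 of 12 arrays. Of the 58 families with a tested member, 46 had at least 1 member called lower in the average. None could have members called in both directions, because no member was called higher. The member with a positive average change, AT5G09500 (S15), was named after its value was seen; it is dim, with signals of at most 30.3, and was not called (0.43 ± 0.30, adjusted p = 0.36).

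After 12 h of estradiol, 31 of 122 members were called lower than in control and none higher, beside 2.52% of all probe sets called lower and 2.36% called higher. They were 21 of 78 large and 10 of 44 small subunit genes, with median log2 changes of -0.41 and -0.49, against 0.00 over all probe sets tested. Arrays did not overlap, with estradiol lower, for 99 of 122 members and 13.7% of all probe sets tested. AT1G23410 had the largest change (-1.02 ± 0.20, adjusted p = 0.0099), followed by AT3G11250 (-0.89 ± 0.23, adjusted p = 0.038) and AT1G07070 (-0.85 ± 0.16, adjusted p = 0.0071). L35, which lies at the exit of the peptide tunnel in yeast, is encoded by AT2G39390, with signals of 421, 437 and 367 against 625, 724 and 846 in control (-0.82 ± 0.17, adjusted p = 0.012). AT4G29410 (L28) had 798, 795 and 639 against 1134, 1224 and 1239.7 in control (-0.69 ± 0.13, adjusted p = 0.0082).

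Calls of AT1G23410, AT1G07070, AT2G39390, AT4G34555 and AT4G29410 passed without each array in turn; the other 7 of the 12 largest did not. AT3G16780 (L19) missed without any 1 of the 12 h control arrays or estradiol 12 h replicates 2 and 3, and AT5G47930 (S27) without these or either 24 h control array. AT5G22440 and AT4G10450 (L9) missed without control 12 h replicates 1 or 3 or estradiol 12 h replicates 1 or 3, AT4G30800 without control 12 h replicate 3 or estradiol 12 h replicates 1 or 3, and AT2G32220 (L27) without control 12 h replicate 1. AT3G11250 missed without any 1 of 8 arrays, with adjusted p up to 0.13. The count itself was 7 without control 12 h replicate 1, control 12 h replicate 3 or estradiol 12 h replicate 3, 14 without control 12 h replicate 2 or estradiol 12 h replicate 1, 19 without estradiol 12 h replicate 2, and 47 without either trans-zeatin 12 h array, whereas the median stayed between -0.46 and -0.37. With the 3' to 5' covariate 1 call was made, that of AT1G07070 (-0.88, adjusted p = 0.049), and the median was -0.34.

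**Figure D5:**
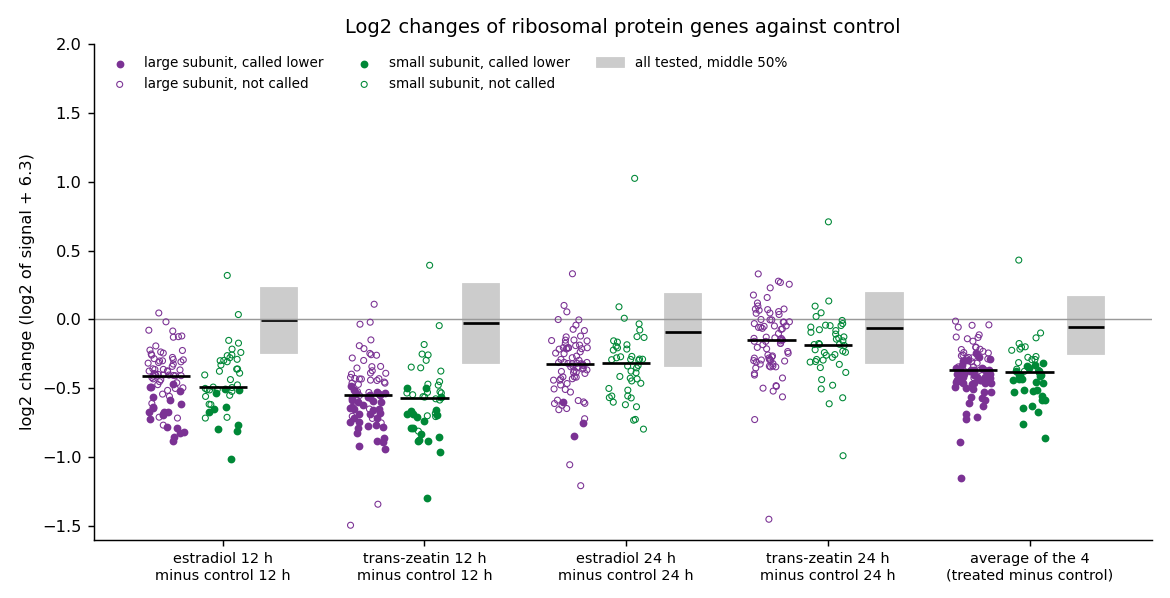
Log2 change of each tested member against control (vertical axis) in the 4 comparisons and their average, for the large (purple) and small (green) subunit, with called members filled and medians as black lines. Grey boxes hold the middle 50% of all tested probe sets; the members' medians lie below those of all tested probe sets in each comparison, and least so for trans-zeatin at 24 h (-0.17 against -0.06).

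After 12 h of trans-zeatin, 56 of 122 members were called lower and none higher, beside 4.33% of all probe sets called lower and 3.21% called higher. These were 37 large and 19 small subunit genes, 8 of 12 stalk genes among them. After 12 h of estradiol the only stalk genes called were AT3G11250, AT3G44590, AT2G27710 and AT5G47700. No stalk gene was called after 24 h of either treatment. The median log2 change after 12 h of trans-zeatin was -0.56, against -0.03 over all probe sets tested. Arrays did not overlap, with trans-zeatin lower, for 104 of 122 members and 21.6% of all probe sets tested. AT1G23410 had the largest called change (-1.30 ± 0.22, adjusted p = 0.0043), and AT4G34555 was next (-0.96 ± 0.17, adjusted p = 0.0053). AT3G07110 (L13a) had 1533 and 1111 with trans-zeatin, against 2561, 2189 and 2687 in control (-0.92 ± 0.18, adjusted p = 0.0077). AT2G32060 (S12) had 767 and 510.4 with trans-zeatin, against 1198, 1119.7 and 1158 in control (-0.88 ± 0.17, adjusted p = 0.0081). AT2G17360 was at -0.84 ± 0.18 (adjusted p = 0.015).

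The number of calls depended on which of the 2 treated arrays was kept. With 1 of a pair of arrays left out, the remaining array is assumed to vary like those of the other groups. Without trans-zeatin 12 h replicate 2, no member was called (limma) and the median was -0.37; without replicate 1, 78 were called and the median was -0.74. With control 12 h replicates 1, 2 or 3 left out in turn, 16, 23 and 27 members were called, and 36 without either 24 h control array. AT3G11250, AT5G52650 (S10), AT4G25890, AT4G30800, AT5G48760 (L13a), AT5G58420 and AT1G07070 also missed the threshold without at least 1 control array of 12 h. With the 3' to 5' covariate no member was called and the median was -0.38.

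After 24 h of estradiol, 3 of 122 members were called lower, all of the large subunit, and none higher, beside 1.53% of all probe sets called lower and 2.28% called higher. The median log2 change was -0.32, against -0.09 over all probe sets tested, and -0.22 against 0.02 with arrays centred on their median. An unadjusted p under 0.05 was found for 41 members, all lower, and for 10.7% of all probe sets in that direction. Arrays did not overlap, with estradiol lower, for 98 of 122 members and 33.3% of all probe sets tested. AT1G07070 was at -0.85 ± 0.19 (adjusted p = 0.026). AT3G22230 had 1006 and 846 with estradiol, against 1489.5 and 1631 in control (-0.75 ± 0.20, adjusted p = 0.049). AT2G47610 (L7a) had 1405 and 1575 with estradiol, against 2059.8 and 2477 in control (-0.60 ± 0.15, adjusted p = 0.044). All 3 missed the threshold without any 1 of the 4 arrays compared, AT3G22230 and AT2G47610 also without arrays of other groups. The count was 0 without either 24 h control array or estradiol 24 h replicate 2, 1 without control 12 h replicate 1, estradiol 12 h replicate 2, estradiol 24 h replicate 1 or trans-zeatin 24 h replicate 1, and 7 and 8 without trans-zeatin 12 h replicates 1 and 2. With the 3' to 5' covariate it was 0, and the median -0.23.

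After 24 h of trans-zeatin, no member was called (limma), beside 1.32% of all probe sets called lower and 2.15% called higher, and 11 members had an unadjusted p under 0.05, all lower, beside 9.77% of all probe sets in that direction. The median log2 change was -0.17, against -0.06 over all probe sets tested, and -0.01 with the 3' to 5' covariate. It was -0.08 without trans-zeatin 24 h replicate 2, against -0.06 over all probe sets tested in that fit, -0.25 without replicate 1, and -0.07 with arrays centred on their median, against 0.04 over all probe sets. Arrays did not overlap, with trans-zeatin lower, for 63 of 122 members and 31.9% of all probe sets tested. The 3 members with the lowest p were AT3G49910 (L26; -0.56 ± 0.15, adjusted p = 0.059), AT2G16360 (-0.99 ± 0.30, adjusted p = 0.094) and AT4G00810 (-0.48 ± 0.18, adjusted p = 0.17). AT3G49910 had 2105 and 1737 with trans-zeatin, against 2526 and 3165 in control.

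The treatments were also compared with each other at the same dose and time. At 12 h no member was called between estradiol and trans-zeatin (limma), beside 0.00641% of all probe sets called, 3 members and 8.47% of all probe sets had an unadjusted p under 0.05, and the median log2 difference of estradiol minus trans-zeatin was 0.13. That median was -0.09 without trans-zeatin 12 h replicate 2, 0.33 without replicate 1, and 0.08 with arrays centred on their median. The lowest p was that of AT5G02450 (L36), with 1849, 1418 and 1394 on estradiol arrays, against 972 and 1056 on trans-zeatin arrays (0.60 ± 0.18, adjusted p = 0.48). At 24 h no member was called either (beside 0.0449% of all probe sets), 3 members and 5.72% of all probe sets had an unadjusted p under 0.05, and the median was -0.16. Without trans-zeatin 24 h replicate 1 it was -0.08, and without replicate 2 it was -0.25. There, estradiol arrays lay below trans-zeatin arrays without overlap for 52 of 122 members and 21.7% of all probe sets tested.

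Between control at 24 h and control at 12 h the median log2 change was 0.00 (-0.11 with arrays centred on their median), 61 members were positive and 61 negative, and none was called (limma), beside 0.468% of all probe sets called. An unadjusted p under 0.05 was found for 14 members and 15% of all probe sets. The lowest p was that of AT3G49910, with 2526 and 3165 in control at 24 h, against 2030.3, 2018 and 1854 at 12 h (0.52 ± 0.14, adjusted p = 0.13). Whether a treatment acted differently at 24 h than at 12 h was tested as an interaction, taken as the 24 h change minus the 12 h change. For estradiol no member was called (beside 0.0769% of all probe sets), 6 members and 8.48% of all probe sets had an unadjusted p under 0.05, and the median was 0.08. That median was 0.013 without estradiol 12 h replicate 3, 0.0155 without control 24 h replicate 1, 0.12 without estradiol 12 h replicate 1, 0.13 without control 24 h replicate 2, and 0.19 with arrays centred on their median, against 0.06 over all probe sets. For trans-zeatin no member and no other probe set was called (0% of all probe sets). There, 117 of 122 members and 48.3% of all probe sets were positive, 31 members and 9.53% of all probe sets had an unadjusted p under 0.05, and the median was 0.39, against -0.02 over all probe sets. The median was 0.19 without trans-zeatin 12 h replicate 2 and 0.57 without replicate 1. The lowest p was that of AT3G14600 (L18a), at 0.98 ± 0.28 (adjusted p = 0.39). The change largest in size went the other way, that of AT2G16360 (S25), at -1.38 ± 0.41 (adjusted p = 0.4).

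Genes of ribosome assembly were read from a list of 23 genes of ribosome biogenesis and its regulators, of which 6 were the only gene named on a probe set. In the average of the 4 comparisons 3 were called lower and none higher: AT3G05060, a NOP5/58 protein that guides rRNA modification (-0.70 ± 0.15, adjusted p = 0.0058), AT1G52930, a BRX1 protein of large subunit assembly (-0.61 ± 0.12, adjusted p = 0.0031), and AT2G40360, the BOP1 homolog (-0.38 ± 0.12, adjusted p = 0.043). Over all probe sets tested, 9.48% were called lower and 7.16% higher in that average. RAPTOR1, a partner of the growth regulator TOR kinase, was at -0.09 ± 0.14 (adjusted p = 0.72). At 12 h the list's median was -0.46 with estradiol and -0.53 with trans-zeatin, beside -0.42 and -0.56 for the tested ribosomal protein genes. Its summed signal at 12 h was 1592 to 1978 with estradiol and 1390 to 2125 with trans-zeatin, against 2578 to 2677 in control. At 24 h the sum was 1773 to 1873 with estradiol and 2009 to 2054 with trans-zeatin, against 2267 to 2269 in control. Of 13 tested ribosomal protein genes encoded in the chloroplast genome, 2 were called higher and 1 lower in the average, with a median of 0.15. Beside the shares of 7.16% higher and 9.48% lower over all probe sets tested, so few calls give no direction for this list. The dividing-cell markers AUR1 (-0.69 ± 0.13, adjusted p = 0.0027), PRL (-0.51 ± 0.11, adjusted p = 0.0046) and AUR2 (-0.58 ± 0.14, adjusted p = 0.012) were all called lower in the average, and their part in the changes of the ribosomal protein genes was not tested.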

How the data were processed

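Per the submitters' processing notes, MAS5 and GCOS were used, and no version is given in the sources used here. The authors deposited a linear signal intensity per probe set and array, with a mean of 100 per array after trimming 2% at each end, and no further normalization was applied. All sample columns of the table were used. Members and lists were chosen with earlier results of these data known. Membership, family and subunit come from a catalogue recalled by locus, since no description of the genes was at hand. For the same reason the lists of organellar ribosomal proteins and translation factors chosen by description could not be formed, and no sequence is shown.

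Signals were turned into log2(signal + 6.3), where 6.3 is the 20th percentile of all values, so that folds of dim genes are understated. Probe sets with at least 2 arrays above 23, the 40th percentile, were tested (15605). With R 4.3.3 and limma 3.58.1, a model with a mean for each group was fitted over all 14 arrays, with an intensity trend in the variances (8 residual and 5.96 prior degrees of freedom) and 10 comparisons. Calls are two-sided, at an adjusted p under 0.05 (Benjamini-Hochberg over all probe sets tested). The method was tested on simulated data. Errors of log2 changes are standard errors. Nothing says that replicates came from separate cultures, so p-values measure the spread between these samples, and the 2 or 3 arrays per group limit the precision. Probe sets of close paralogs may share signal.

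Named genes are AT1G07070 and AT2G17360, up to 12 called members per comparison with the largest fold, the 3 lowest p where none was called, the 3 highest and 3 lowest mean signals, and members with no overlap of treated and control arrays. Their paralogs and the single member with a positive average were added after values were seen. The stalk as a set and the counts within the L10a, L27 and S4 families were not planned either. Residuals of same-numbered arrays of different groups were correlated in 31 pairs; r was over 0.1 in 3 of them (range -0.27 to 0.19), so replicate numbers were not used as pairs. The 3' to 5' ratio was the mean over actin, GAPDH and ubiquitin controls; its probe sets were chosen after the array values were seen and before the fits. Alternatives were other normalizations, pseudocounts and filters, covariates, a replicate block and omitted arrays; where an omission left a group with 1 array, it was assumed to vary like the other groups.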

Additional observations from a re-analysis of the deposited data

How the results depend on the processing

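The median log2 change of the members kept its sign in the 4 comparisons with control and in their average under every alternative run, while counts of called members moved. No member was called higher in the average under any of them. Called lower after 12 h of estradiol were 31 members, against 14 with no filter, 10 with no intensity trend, 7 with only the arrays of that time, 1 with the 3' to 5' covariate, 4 without both control 12 h replicate 3 and estradiol 12 h replicate 1, 17 with a covariate for 25S rRNA, an alternative added after the data were seen, and 7 to 47 with 1 array left out. After 12 h of trans-zeatin the 56 became 29, 21, 12, 0, 31 and 6 in the same order, and 0 to 78 with 1 array left out; the median was -0.38 with the 3' to 5' covariate and -0.74 to -0.37 with 1 array left out. After 24 h of estradiol the 3 became 1 with arrays centred on their median, 1 with no filter, 1 with no intensity trend, 17 with only the arrays of that time, 0 with the 3' to 5' covariate, and 0 to 8 with 1 array left out. After 24 h of trans-zeatin the 0 became 1 with quantile normalization, 1 with only the arrays of that time and 1 without both arrays that stood apart, and the median was -0.0147 with the 3' to 5' covariate. In the average the 77 became 0, with a median of -0.24, under the 3' to 5' covariate, and 31 to 95 with 1 array left out. Between the controls the median was -0.13 with that covariate and 0.13 with the 25S rRNA signal. With 1 array left out, the median of estradiol minus trans-zeatin at 12 h was -0.0881 to 0.326, and that of the trans-zeatin interaction 0.19 to 0.57. The cause of these moves was not tested.

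The replicate number as a block gave 24, 40, 1 and 1 calls in the 4 comparisons and 76 in the average. Of the values of named members, AT3G28500 alone changed sign, at 0.10 in the average with the 3' to 5' covariate; over 63 such values and 25 settings, 1281 kept direction and side of the threshold, 265 lost the call and 5 gained it. AT3G28500 missed its call in the average without control 12 h replicates 1 or 2, either trans-zeatin 12 h array, control 24 h replicate 2, estradiol 24 h replicate 1 or trans-zeatin 24 h replicate 2. AT5G40040 missed it without any control array, trans-zeatin 12 h replicate 2, estradiol 24 h replicate 2 or either trans-zeatin 24 h array, and AT5G59240 without control 12 h replicates 2 or 3, estradiol 12 h replicates 2 or 3, trans-zeatin 12 h replicate 2, either 24 h control array, estradiol 24 h replicate 1 or trans-zeatin 24 h replicate 2. AT2G17360 missed it without any array other than estradiol 12 h replicate 2 and trans-zeatin 12 h replicate 1. Choosing the probe set with the highest mean signal changes nothing, because each member has 1 probe set. Signals near background limit the dim members.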
